A study of Saccharomyces cerevisiae with 27 samples.

Results

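The small-subunit processome is the large nucleolar assembly that forms on the 5′ part of the nascent ribosomal RNA precursor and turns it into a 40S particle. This account describes 37 genes for its proteins and for 40S assembly, chosen by name and matched on the gene name or open reading frame of the arrays, among 6388 names in all. Each of the 37 lay on a probe of its own, and 36 of them were among the 5865 genes that could be tested. The data are 27 two-colour spotted arrays of wild-type Saccharomyces cerevisiae W303. On each array, cells that had reached a given replicative age, the number of daughters a mother cell has budded, were set against young cells, described as 1 generation old and grown under matched conditions. The ages were 1 generation (7 arrays, young against young), 8 generations (6 arrays), 12 generations (7 arrays) and 18-20 generations (7 arrays). All values are log2(aged/young), so 0 is the young level, -1 is a level 2-fold lower in the aged cells, and each age was tested against 0 in one limma fit. Aged cells were obtained with magnetic beads from cultures kept in log phase, and no label ties an array to a culture of its own. The p-values thus rest on the spread between these arrays, which may be technical. The fit gave each gene a single spread shared by all ages, although arrays spread more at older ages. UTP4, for example, had an SD over arrays of 0.14 at 1 generation and 0.99 at 12, with SEs of 0.22 and 0.21. The p-values can thus be too low at an age whose arrays spread widely, and too high at 1 generation.

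In budding yeast, RNA polymerase I transcribes the precursor in the nucleolus, and the processome assembles on it stepwise. The UTP-A complex binds the 5′ external spacer first, UTP-B and the U3 small nucleolar ribonucleoprotein follow, and the U3 RNA pairs with the precursor to hold it in place for the early cleavages that release the 18S part. The genes for these proteins, together with those for 60S assembly and for ribosomal proteins, are known in yeast as a group that follows growth rate and nutrient signalling through the TOR and protein kinase A pathways.

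Spots that carried a mark were left out, 174 to 1157 per array of 6580 in all. The log2 ratios of all genes spread more on older arrays, with an SD between 0.154 and 0.233 at 1 generation, 0.323 and 0.897 at 8, 0.598 and 0.985 at 12, and 0.913 and 1.28 at 18-20 generations. Of the 7 arrays at 18-20 generations, arrays 1 to 4 were much alike (r = 0.931 to 0.965 over genes) and correlated at most at 0.73 with arrays 5 to 7. At 12 generations, array 1 correlated more with those 4 arrays (r = 0.853 to 0.879) than with the other arrays of its own age (0.226 to 0.726). The 8-generation arrays and 18-20-generation array 7 correlated among themselves in spot brightness at 0.713 to 0.946 and with the other 20 arrays at 0.616 to 0.806, ranges that overlap, while those 20 correlated among themselves at 0.817 to 0.971. Array 1 of 8 generations ran against arrays 2, 3 and 4 of its age (r = -0.643, -0.58 and -0.661), so its direction is not settled, and 8-generation results are also given with that array turned. In the authors' deposited table, the columns of 8-generation arrays 1 and 3 matched each other's scanner values (r = 0.97 and 0.943) and ran against their own (-0.581 and -0.572). Array 2 of 1 generation, the only one of its age with the dyes inverted, ran against 5 of the 6 others (r = -0.67 to -0.209). The labels word the mating type so that "a" may be its name or an article. Probes for 7 genes known from cells of the a type were bright in both channels on 10 to 20 arrays, against 26 or 27 arrays for 4 genes known from alpha cells (MF(ALPHA)1, MF(ALPHA)2, STE3 and SAG1). All 4 alpha genes fell at 18-20 generations, with log2 values from -2.54 to -0.64, while 4 of the 7 a-type genes rose and 0 fell. Their part in the results on the processome genes was not tested.

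Most processome genes fell at 12 and at 18-20 generations, and none passed the test at 1 or 8 generations. The median of the 36 tested members was 0.04 at 1 generation, 0.05 at 8, -0.69 at 12 and -1.52 at 18-20 generations, beside medians of all tested genes between -0.01 and 0.02. With arrays scaled to a common spread of log ratios, the median at 18-20 generations was -0.77. Lower levels in such bulk RNA can come from less of these transcripts per cell or from fewer cells that carry them, which cannot be told apart here. At 18-20 generations 35 of 36 members fell and 0 rose (limma, adjusted p under 0.05), beside 31.2% of all genes that fell and 32.9% that rose. RCL1 did not pass with scaled arrays or with alike arrays averaged, and IMP3 lost its call under these and other settings given with its values. At 12 generations 25 fell and 0 rose, beside 21.5% and 23.3% of all genes. Set against the 1-generation arrays in place of 0, 20 fell, without DIP2, RRP9, IMP3, UTP14 and BUD21, beside 13.1% of all genes. At 1 and at 8 generations 0 members passed, beside 0% of all genes at either age, but with arrays weighted by their spread 12 members passed at 8 generations, beside 24.6% of all genes. Without adjustment, 1 member was lower and 5 were higher at 8 generations with p under 0.05 (all genes 4.72% and 8.03%). At 1 generation 0 members reached p under 0.05 in either direction (all genes 0.0512% lower and 0.171% higher). That test used the spread shared with the older arrays, so only a large change could pass it at 1 generation. UTP8, for example, had an SD of 0.029 over the 1-generation arrays and an SE of 0.17 there. The lack of calls at 1 generation therefore says little about small changes.

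**Figure D1:**
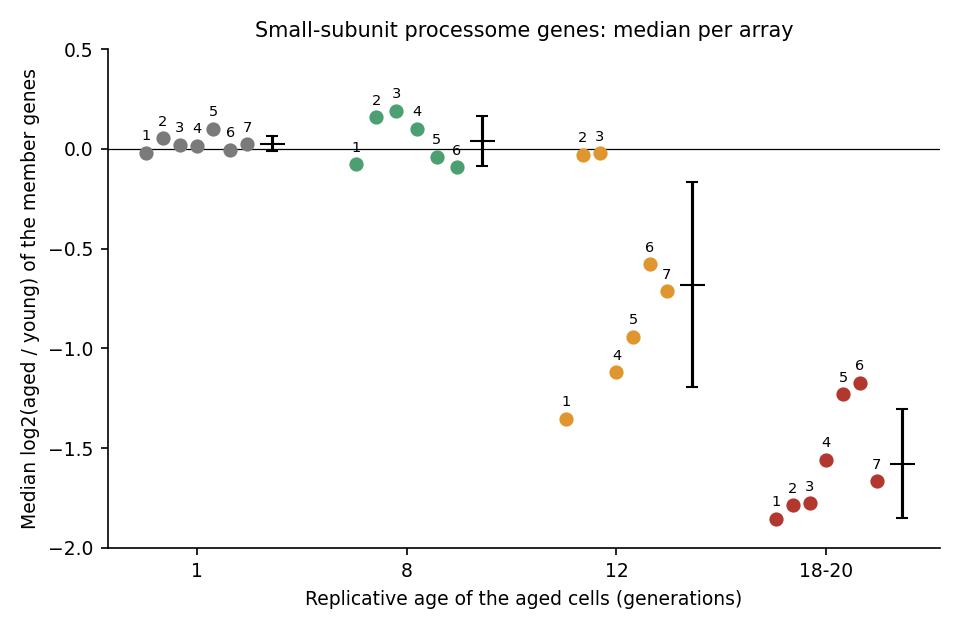
Median log2(aged/young) of the member genes on each array (points, numbered by array), by age in generations, with the mean and SD over arrays as a bar beside each age. The 1-generation and 8-generation arrays lie around 0, the 12-generation arrays spread from -1.35 to -0.02, and the 18-20-generation arrays from -1.85 to -1.17.

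Taken array by array, the median of the members measured (BMS1 included where it had an unmarked spot) averaged 0.027 ± 0.040 over the 7 arrays at 1 generation and 0.041 ± 0.125 over the 6 at 8 generations (SD). It averaged -0.68 ± 0.51 over the 7 arrays at 12 generations and -1.58 ± 0.27 over the 7 at 18-20 generations. All 18-20-generation arrays lay below all 1-generation arrays. At 12 generations, arrays 2 and 3 lay near 0 (-0.03 and -0.02), whereas arrays 4, 5, 6 and 7 lay between -1.12 and -0.58 and array 1 at -1.35, within the range of the 18-20-generation arrays. The plot of array medians shows this split at 12 generations. Both dye orientations showed the fall. With the aged cells in Cy3, the array medians ran from -1.79 to -1.17 at 18-20 generations, and with the aged cells in Cy5 from -1.85 to -1.23. Of the oldest arrays, 18-20-generation array 7 lay below every 8-generation array for 29 of 36 members, beside 30.8% of all genes.

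Of the 36 members, 32 were below 0 on every 18-20-generation array that measured them (24.2% of all genes), and 28 had every 18-20-generation array below every 1-generation array (17.7% of all genes). With scaled arrays 16 members had no such overlap (6.63% of all genes). At 12 generations 16 were below 0 on every array (13.8% of all genes) and 12 had no overlap with the 1-generation arrays (7.60% of all genes). Among the genes called lower, the fitted level was more than 2-fold below young cells for 31 members at 18-20 generations (13.9% of all genes). At 12 generations this held for 7 members (4.69%). It was more than 4-fold below for 10 members at 18-20 generations (2.98% of all genes) and for 0 at 12 generations (0.0853%). The test was against 0, so no fall was tested to exceed 2-fold or 4-fold.

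**Figure D2:**
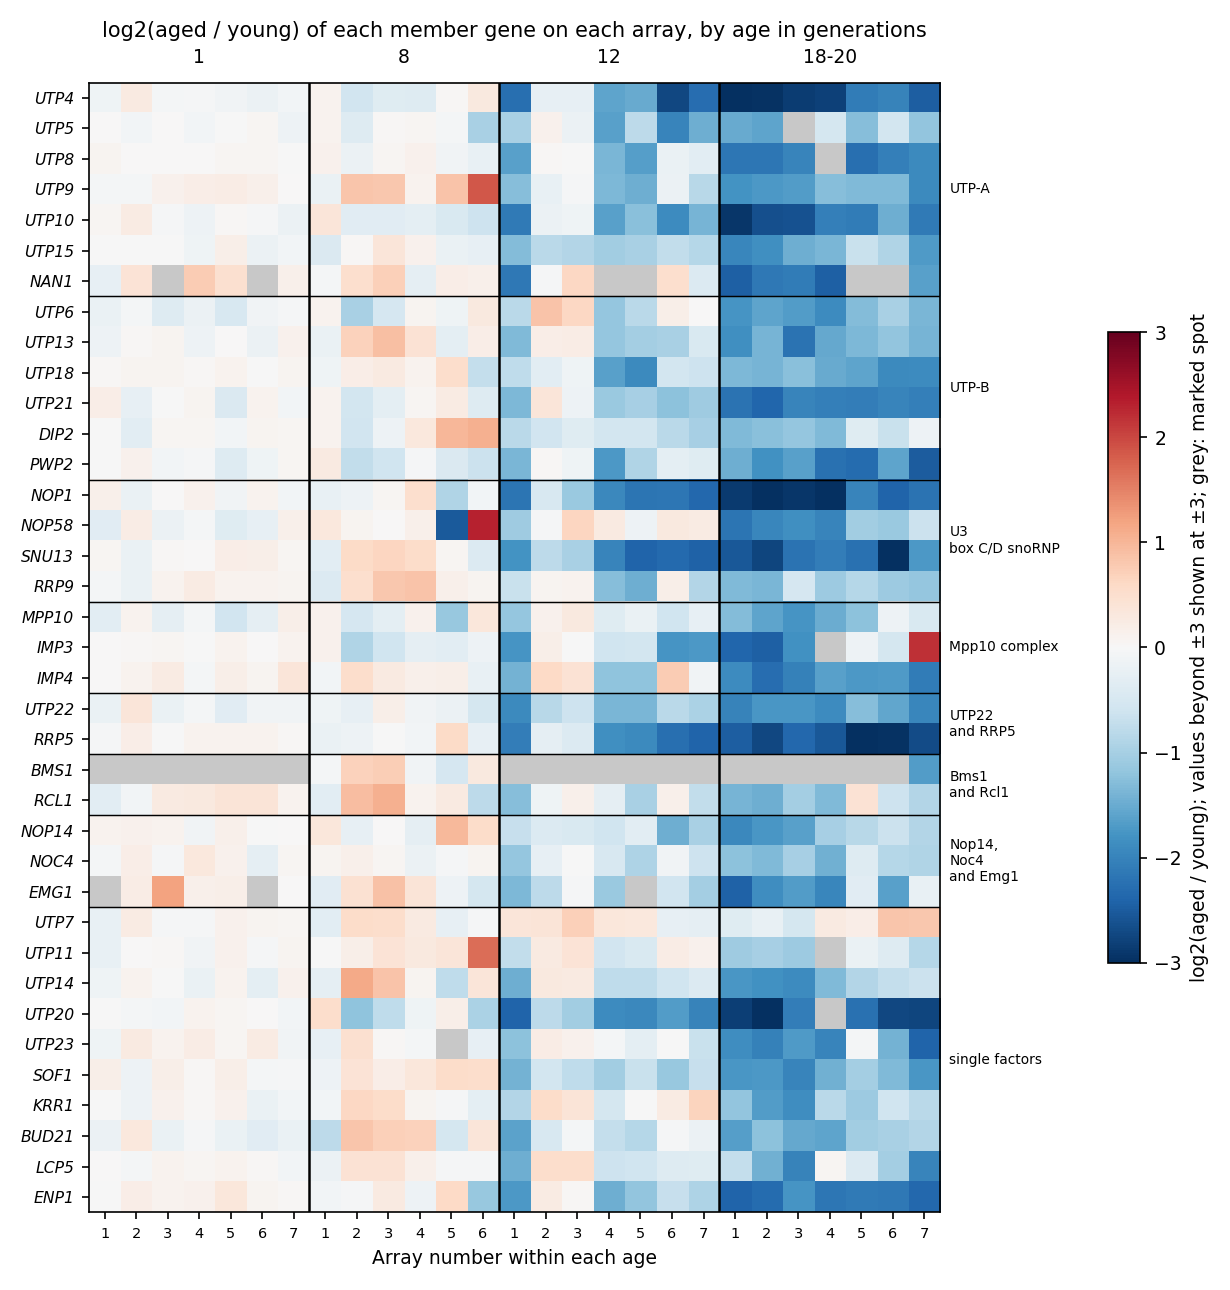
log2(aged/young) of the 37 member genes (rows, by complex) on the 27 arrays (columns, by age in generations and array number). Blue is lower in the aged cells, red higher, and grey a marked spot. Most rows are blue at 12 generations, less so on arrays 2 and 3. At 18-20 generations nearly all cells are blue outside UTP7, with IMP3 on array 7 and RCL1 on array 5 in red and LCP5 on array 4 just above 0.

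UTP-A is the first complex on the precursor and the one tied to transcription by RNA polymerase I, and its genes fell as a whole. All 7 of its genes fell at 18-20 generations (median -2.09, from -2.61 to -1.11), and 6 of 7 at 12 generations (median -0.94). For this and the groups below, the shares of all genes that fell were 31.2% at 18-20 and 21.5% at 12 generations. UTP4 ran from -0.17 to 0.26 at 1 generation (median -0.07), from -0.57 to 0.30 at 8 (median -0.17), from -2.73 to -0.25 at 12 (median -1.57) and from -3.12 to -2.01 at 18-20 generations (median -2.81). Its 18-20-generation arrays all lay below all 1-generation and 8-generation arrays, and overlapped with those of 12 generations. Its fitted level was 6.09-fold below young cells at 18-20 generations (-2.61 ± 0.21 SE, n = 7, adjusted p = 2.56e-11). UTP10, the largest scaffold of the complex, ran from -0.17 to 0.24 at 1 generation (median -0.03), from -0.62 to 0.36 at 8 (median -0.34), from -2.13 to -0.13 at 12 (median -1.39) and from -2.91 to -1.47 at 18-20 generations (median -2.11). It was thus low on all 18-20-generation arrays and on most of those at 12 generations, and fell 4.73-fold (-2.24 ± 0.18, n = 7, adjusted p = 1.82e-11).

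The fitted value of UTP8 (-2.09 ± 0.17, n = 6) was beyond 4-fold at 18-20 generations, and so was that of NAN1, also called UTP17 (-2.13 ± 0.26, n = 5). Their 95% intervals, from -2.44 to -1.73 and from -2.67 to -1.59, also hold falls smaller than 4-fold. UTP8 was among 4 members whose 18-20-generation arrays all lay below all 12-generation arrays, with UTP21, IMP4 and ENP1, beside 1.65% of all genes (these 4 were named after their values were seen). UTP5 fell least in the complex (-1.11 ± 0.20, adjusted p = 2.04e-05, n = 6), and had much the same value at 12 generations (-0.97 ± 0.18, n = 7).

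UTP-B, the second complex to arrive and built largely of WD-repeat proteins, had 6 of 6 genes lower at 18-20 generations (median -1.55, from -2.12 to -0.91) and 5 of 6 at 12 generations (median -0.67). UTP21 (-2.12 ± 0.15) and PWP2 (-1.92 ± 0.17) were lowest and DIP2 highest (-0.91 ± 0.15, n = 7 each). UTP6 was the member not called at 12 generations (-0.16 ± 0.18, adjusted p = 0.509), where its arrays ran from -1.17 to 0.85, and at 18-20 generations it fell (-1.51 ± 0.18, adjusted p = 3.94e-08).

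The genes for proteins of the U3 box C/D ribonucleoprotein fell in 4 of 4 cases at 18-20 generations (median -1.96) and in 3 of 4 at 12 generations (median -1.19). NOP1 encodes fibrillarin, the methyltransferase of box C/D particles, and had the lowest fitted value of all members. It ran from -0.20 to 0.15 at 1 generation (median 0.01), from -0.90 to 0.50 at 8 (median -0.12), from -2.36 to -0.48 at 12 (median -2.17) and from -3.42 to -1.99 at 18-20 generations (median -2.88). The 12-generation arrays were thus already all below 0, with array 2 within the range of the 8-generation arrays. Its level was 6.80-fold below young cells at 18-20 generations (-2.77 ± 0.18 SE, n = 7, adjusted p = 1.00e-12) and -1.79 ± 0.18 at 12 generations (adjusted p = 1.81e-08).

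SNU13 encodes the protein that binds the kink-turn of box C/D RNAs and of the spliceosomal U4 RNA. It ran from -0.19 to 0.21 at 1 generation (median 0.06), from -0.42 to 0.65 at 8 (median 0.30), from -2.42 to -0.79 at 12 (median -1.97) and from -3.29 to -1.72 at 18-20 generations (median -2.24). Both older ages lay wholly below the 2 younger ones. Its values were -1.83 ± 0.17 at 12 generations, the lowest of any member at that age (adjusted p = 5.63e-09), and -2.43 ± 0.17 at 18-20 generations (adjusted p = 3.78e-12, n = 7 each). RRP9, the gene for the U3-specific protein, fell less (-1.08 ± 0.16 at 18-20 generations, adjusted p = 1.72e-06).

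NOP58, the gene for another core protein of the particle, differed from NOP1 in its course. It ran from -0.37 to 0.23 at 1 generation (median -0.17), from -2.52 to 2.30 at 8 (median 0.12), from -1.06 to 0.65 at 12 (median 0.25) and from -2.20 to -0.65 at 18-20 generations (median -1.83). Arrays 5 and 6 of 8 generations gave its extremes in opposite directions, and its 12-generation value did not pass (0.07 ± 0.28, adjusted p = 0.864). At 18-20 generations it fell (-1.50 ± 0.28, adjusted p = 3.59e-05, n = 7).

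The Mpp10 complex, whose IMP3 and IMP4 proteins help U3 pair with the precursor, had 3 of 3 genes lower at 18-20 generations (median -1.12) and 1 of 3 at 12 generations. With so few genes, the count at 12 generations cannot be told from the 21.5% of all genes that fell. IMP4 ran from -0.07 to 0.37 at 1 generation (median 0.10), from -0.23 to 0.54 at 8 (median 0.16), from -1.41 to 0.75 at 12 (median -0.10) and from -2.28 to -1.64 at 18-20 generations (median -1.89). Its 12-generation arrays lay on both sides of 0, and all of its 18-20-generation arrays lay below all others. It was not called at 12 generations (-0.30 ± 0.19, adjusted p = 0.205) and fell at 18-20 (-1.91 ± 0.19, adjusted p = 1.64e-09). MPP10 itself was -1.12 ± 0.17 at 18-20 generations (adjusted p = 2.39e-06).

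IMP3 was the least even member. It ran from -0.00 to 0.11 at 1 generation (median 0.03), from -0.89 to 0.13 at 8 (median -0.29), from -1.78 to 0.18 at 12 (median -0.59) and from -2.45 to 2.20 at 18-20 generations (median -1.18, n = 6). Array 7 at 18-20 generations gave the 2.20, and the other 5 measured arrays were below 0. The fitted value of -0.89 ± 0.37 at 18-20 generations just passed (adjusted p = 0.0385). It was -1.46 without array 7 (adjusted p = 7.60e-05), and -0.52 without array 2, where it did not pass (adjusted p = 0.263). Nor did it pass without array 1 (adjusted p = 0.185) or array 3 (0.135), with print-tip loess (0.0549), with the replicate block (0.0641), against the 1-generation arrays (0.163), with scaled arrays (0.0694) or with alike arrays averaged (0.679).

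UTP22 and RRP5 bind early and link the processome to the rest of the pathway, with RRP5 needed for both subunits. RRP5 ran from -0.04 to 0.19 at 1 generation (median 0.11), from -0.25 to 0.57 at 8 (median -0.12), from -2.41 to -0.28 at 12 (median -1.91) and from -2.98 to -2.35 at 18-20 generations (median -2.68). At 12 generations arrays 2 and 3 were at -0.28 and -0.40 and the other 5 were between -2.41 and -1.85. It was 6.41-fold below young cells at 18-20 generations (-2.68 ± 0.18, n = 7, adjusted p = 1.16e-12) and -1.60 ± 0.18 at 12 (adjusted p = 7.54e-08). UTP22 fell at both ages (-1.73 ± 0.12 at 18-20 and -1.11 ± 0.12 at 12 generations).

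**Figure D3:**
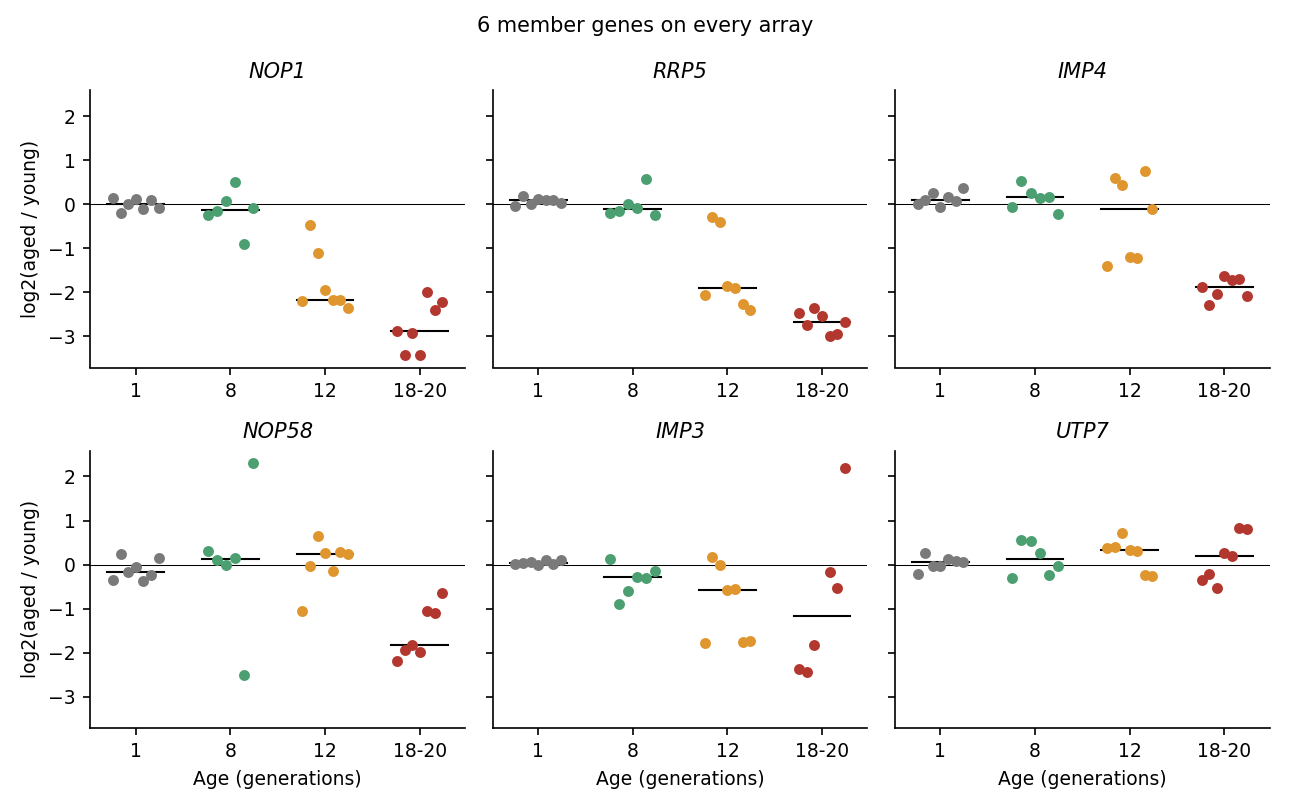
log2(aged/young) of NOP1, RRP5, IMP4, NOP58, IMP3 and UTP7 on every array (points), by age in generations, with the median as a line. NOP1 and RRP5 are low at 12 and 18-20 generations, IMP4 and NOP58 at 18-20, IMP3 has 1 array at 2.20, and UTP7 stays around 0.

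BMS1, the GTPase of the processome, could not be tested. Its spot was unmarked on 7 arrays only, which were exactly the 8-generation arrays and 18-20-generation array 7. The 8-generation arrays gave -0.50 to 0.74 (median 0.12) and array 7 gave -1.67. With marked spots kept it was -0.27 at 18-20 generations (adjusted p = 0.169) and 0.03 at 12 (adjusted p = 0.891), neither past the threshold. RCL1, the partner of Bms1 and a protein of the cyclase family, fell at 18-20 generations (-0.91 ± 0.20, adjusted p = 0.000334, n = 7) with array 5 at 0.44 and the other 6 below 0, and did not pass at 12 (-0.45 ± 0.20, adjusted p = 0.0715).

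NOP14, NOC4 and EMG1 form a further group around the 3′ part of the 18S region, with EMG1 encoding a methyltransferase for a modified uridine of the 18S RNA. All 3 fell at 18-20 generations (NOP14 -1.23 ± 0.15, NOC4 -1.02 ± 0.12 and EMG1 -1.46 ± 0.22, n = 7 each) and at 12 generations (-0.70 ± 0.15, -0.51 ± 0.12 and -0.83 ± 0.24).

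Of the 10 single factors, 9 fell at 18-20 generations (median -1.26) and 5 at 12 generations (median -0.40). UTP20, a very large helical-repeat scaffold, was the lowest. It ran from -0.07 to 0.10 at 1 generation (median -0.02), from -1.20 to 0.52 at 8 (median -0.44), from -2.40 to -0.78 at 12 (median -1.89) and from -3.10 to -2.08 at 18-20 generations (median -2.74, n = 6). All of its 12-generation arrays were below its 1-generation arrays. Its fall reached 6.35-fold at 18-20 generations (-2.67 ± 0.19, adjusted p = 4.37e-12). ENP1, which stays with the pre-40S particle into the cytoplasm, fell to -2.19 ± 0.18, SOF1 to -1.56 ± 0.11, and UTP23 to -1.64 ± 0.19 with array 5 at -0.06 (n = 7 each). BUD21, UTP14, which activates a helicase of the processome, KRR1 and LCP5 fell by between 1.05 and 1.27 on the log2 scale. LCP5 was at 0.07 on 18-20-generation array 4.

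UTP11 was the smallest fall among the members that passed. It ran from -0.22 to 0.12 at 1 generation (median 0.02), from -0.02 to 1.67 at 8 (median 0.33), from -0.73 to 0.40 at 12 (median 0.12) and from -1.09 to -0.19 at 18-20 generations (median -0.93, n = 6). The 18-20-generation arrays were all below 0, and those at 12 generations lay on both sides of it. Its value at 18-20 generations was -0.74 ± 0.17 (adjusted p = 0.000506).

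UTP7, a WD-repeat protein at the core of the processome, was the only tested member that did not pass at 18-20 generations. It ran from -0.21 to 0.25 at 1 generation (median 0.06), from -0.31 to 0.55 at 8 (median 0.12), from -0.27 to 0.71 at 12 (median 0.33) and from -0.52 to 0.82 at 18-20 generations (median 0.20). Arrays 1 to 3 at 18-20 generations were below 0 and arrays 4 to 7 above it. The fitted values were 0.24 ± 0.14 at 12 generations (adjusted p = 0.182) and 0.15 ± 0.14 at 18-20 (95% interval -0.14 to 0.45, adjusted p = 0.358).

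The difference between the 2 oldest ages was tested in the same fit. At 18-20 generations 24 of 36 members were lower than at 12 generations and 0 were higher, beside 11.2% and 8.53% of all genes, with a median difference of -0.80 (all genes -0.02). The count depended on the size of the log ratios of each array as a whole. With arrays scaled to a common spread, 0 members passed and 9 of all 5865 genes did. With alike arrays averaged 12 of 35 members were lower, beside 6.71% of all genes lower and 5.49% higher. In the main fit, 17 members fell at 12 generations and were lower again at 18-20, beside 6.00% of all genes. A further 7 (NAN1, UTP6, NOP58, MPP10, IMP4, UTP23 and KRR1) did not pass at 12 generations, fell at 18-20 generations and differed between the ages. For 8 (UTP5, UTP15, DIP2, SNU13, RRP9, IMP3, NOP14 and EMG1) both ages were lower than young and the difference did not pass. For 3 (RCL1, UTP11 and LCP5) neither the 12-generation value nor the difference passed. No share of all genes is given for these groups of 7, 8 and 3, so they are a description of the members. Over the 35 members that fell at 18-20 generations, the 12-generation change had a median of 50.03% of the 18-20-generation change. Array medians of the members at 12 generations ran from -1.35 to -0.02, so this percentage averages over unlike arrays. It also depends on the spread of each array.

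**Figure D4:**
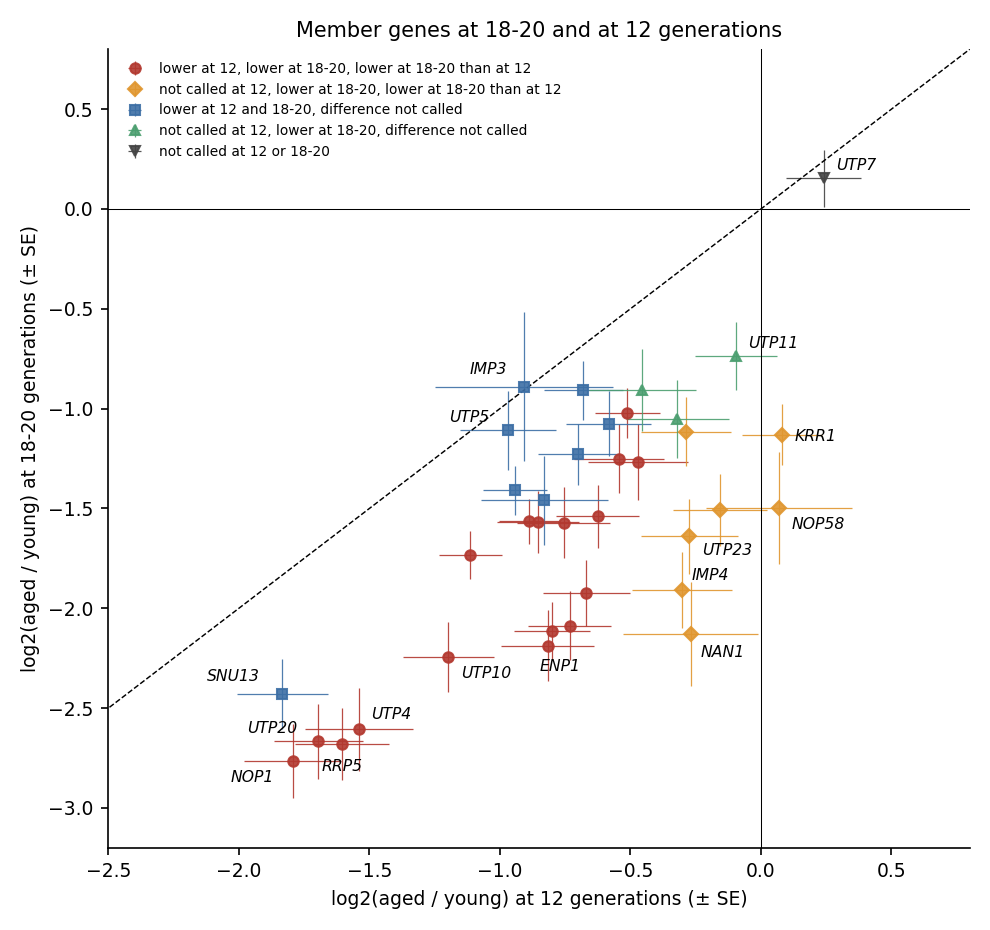
Fitted log2(aged/young) at 18-20 generations (vertical, ± SE) and at 12 generations (horizontal, ± SE) for the 36 tested members, by which tests passed, with a dashed line of equal values. Nearly all members lie below the line, with UTP5, UTP7 and IMP3 near it and NAN1, IMP4 and NOP58 farthest below it.

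The 3 lowest differences were those of NAN1 (-1.86 ± 0.37 SE, adjusted p = 0.00125), IMP4 (-1.60 ± 0.27, adjusted p = 0.000209) and NOP58 (-1.57 ± 0.39, adjusted p = 0.00654). From the authors' deposited table the difference of NAN1 was -0.86 and did not pass (limma, adjusted p = 0.385). The NAN1 spot was bright in both channels on 3 of its 5 arrays at 12 generations. With alike arrays averaged the difference of NOP58 was -1.19 and did not pass (adjusted p = 0.0981). NAN1 ran from -0.25 to 0.76 at 1 generation (median 0.41), from -0.26 to 0.72 at 8 (median 0.17), from -2.14 to 0.62 at 12 (median -0.03) and from -2.45 to -1.63 at 18-20 generations (median -2.14), on 5, 6, 5 and 5 arrays. Its 12-generation minimum came from array 1, and the other 4 arrays lay between -0.42 and 0.62. NAN1 also had the lowest p of the members at 1 generation, where 0.39 ± 0.27 did not pass (adjusted p = 1.00). The 3 highest differences were those of IMP3 (0.02 ± 0.50), UTP7 (-0.09 ± 0.20) and UTP5 (-0.14 ± 0.27), none of which passed. UTP5 ran from -0.15 to 0.06 at 1 generation (median -0.01), from -0.96 to 0.11 at 8 (median -0.02), from -1.98 to 0.13 at 12 (median -0.97) and from -1.57 to -0.54 at 18-20 generations (median -1.24).

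Among arrays of 18-20 generations, 15 members were lower on every measured array of 1 to 4 than on every one of 5 to 7, 1 was the other way round and 20 overlapped, beside 19.4% and 20.2% of all genes in these 2 orders. The SD of the log2 ratios of all genes was 1.03 to 1.16 on arrays 1 to 4, against 0.913, 0.962 and 1.28 on arrays 5, 6 and 7. DIP2 is an example, with -1.32 to -1.15 on arrays 1 to 4 against -0.67 to -0.16 on arrays 5 to 7 (picked after its values were seen). RRP5 had its 3 lowest values on arrays 5, 6 and 2.

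At 8 generations, the 2 members with the lowest p were UTP9 and UTP11, both higher in the aged cells without passing. UTP9, a UTP-A subunit, ran from -0.06 to 0.23 at 1 generation (median 0.13), from -0.20 to 1.85 at 8 (median 0.82), from -1.47 to -0.04 at 12 (median -0.84) and from -1.92 to -1.29 at 18-20 generations (median -1.67). It was above 0 on 5 of the 6 arrays at 8 generations and below 0 on all arrays at the 2 older ages. Its fitted value at 8 generations was 0.69 ± 0.19 (adjusted p = 0.115), and that of UTP11 was 0.45 ± 0.17 (adjusted p = 0.243). With array 1 of this age turned, 2 members were higher and 1 lower, beside 5.49% and 3.58% of all genes. These were UTP9 (0.78 ± 0.18, adjusted p = 0.00694), SOF1 (0.36 ± 0.11, adjusted p = 0.0433) and UTP20 (-0.56 ± 0.16, adjusted p = 0.0286). With only the ratio of that array turned and its dye term kept as labelled, 1 member passed, and it was higher, beside 4.64% of all genes.

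Other genes of the pathway were read from lists that do not hold the members. For comparison, 31.2% of all genes fell and 32.9% rose at 18-20 generations, and 21.5% fell and 23.3% rose at 12 generations. Of 42 other factors of the processome and the pre-40S particle, 36 fell and 0 rose at 18-20 generations (median -1.20), and 20 fell and 1 rose at 12 generations (median -0.42). The lowest were DHR2 (-2.65 ± 0.21), a helicase, NSR1 (-2.48 ± 0.19), the yeast nucleolin, KRE33 (-2.43 ± 0.18), an RNA acetyltransferase, and RRP12 (-2.37 ± 0.16), an export factor. NOB1, the nuclease that makes the mature 18S end in the cytoplasm, was the 1 that rose at 12 generations (0.47, adjusted p = 0.0308), and it was -0.09 ± 0.17 at 18-20 generations (adjusted p = 0.660).

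Of 59 tested 60S assembly factors, 56 fell and 0 rose at 18-20 generations (median -1.57), and 34 fell and 1 rose at 12 generations (median -0.61). NIP7 (-3.04 ± 0.18), PUF6 (-2.62 ± 0.22), ERB1 (-2.49 ± 0.19) and ARX1 (-2.47 ± 0.20), which act in the nucleolus or during export of the large subunit, were lowest. LOC1 was the 1 that rose at 12 generations (0.51 ± 0.17, adjusted p = 0.0171), and it fell at 18-20 generations (-1.18 ± 0.17). All 8 listed genes of RNA polymerase I, the enzyme and its factor Rrn3, fell at both ages, with medians of -2.19 at 18-20 and -1.28 at 12 generations. RPA135, the second-largest subunit, was lowest (-2.73 ± 0.16), followed by RPA43 (-2.38 ± 0.19), RPA12 (-2.33 ± 0.14) and RPA34 (-2.21 ± 0.25).

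Of 43 tested 40S ribosomal protein genes, 43 fell at 18-20 generations (median -2.13) and 29 at 12 generations (median -0.93), with 0 higher. RPS9A (-3.04 ± 0.20), RPS4B (-2.75 ± 0.20), RPS30B (-2.71 ± 0.15) and RPS16B (-2.70 ± 0.19) were lowest. Most of these genes have a near-identical copy, whose transcripts a spotted probe may not separate. The mitochondrial small subunit works in another compartment. Of its 32 genes, 6 fell and 10 rose at 18-20 generations (median 0.05), beside 31.2% and 32.9% of all genes. The number that rose was thus near the share of all genes. At 12 generations 0 fell and 13 rose (median 0.30), beside 21.5% and 23.3% of all genes. At 18-20 generations RSM26 was at -1.24 ± 0.25, and MRPS16, YMR31 and MRPS12 were at 1.16 ± 0.14, 0.94 ± 0.16 and 0.77 ± 0.17.

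**Figure D5:**
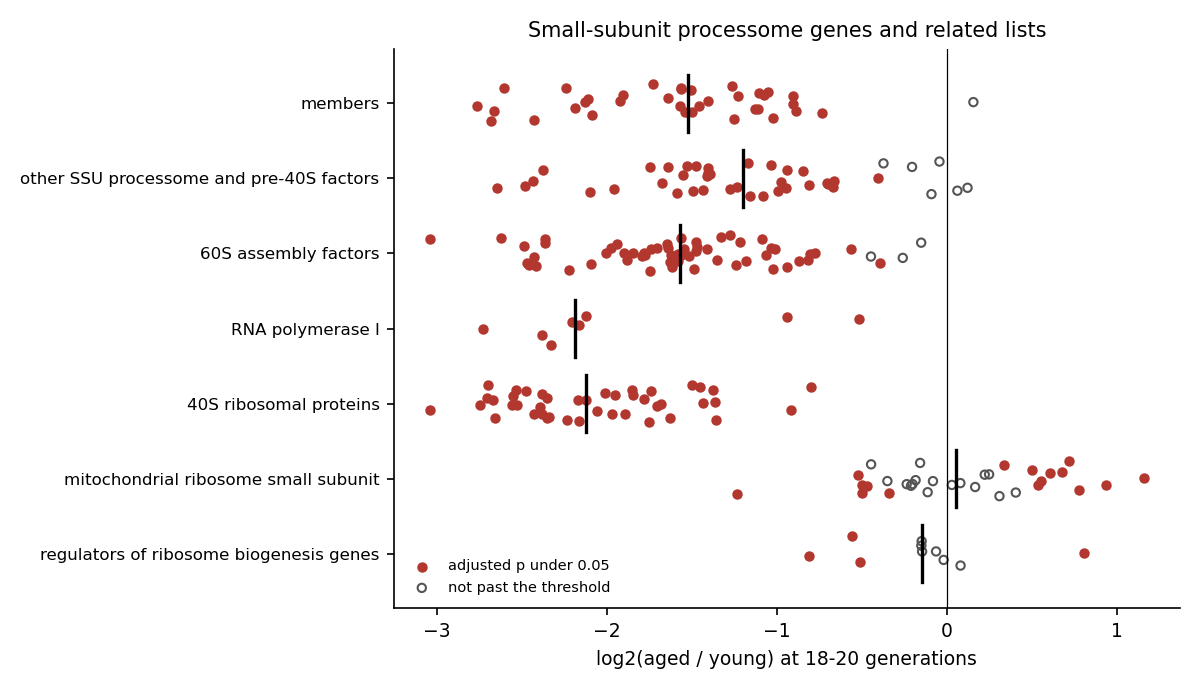
Fitted log2(aged/young) at 18-20 generations of each tested gene (points, filled where the adjusted p was under 0.05) in the member list and 6 related lists, with the list median as a vertical bar. The members and the lists of cytoplasmic ribosome formation lie mostly left of 0, and the mitochondrial small subunit and the regulators lie around 0.

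Of the 10 listed regulators of ribosome biogenesis genes, 3 fell and 1 rose at 18-20 generations (median -0.15), beside 31.2% and 32.9% of all genes. The number that fell was thus near the share of all genes. At 12 generations 4 fell and 1 rose, beside 21.5% and 23.3% of all genes. The genes named next are a description of the list. IFH1 (-0.81 ± 0.15), a coactivator of ribosomal protein genes, SCH9 (-0.56 ± 0.12), a kinase downstream of TOR, and TOD6 (-0.51 ± 0.13), a repressor that binds a motif common in ribosome assembly promoters, fell. STB3, a repressor of the same gene group, rose (0.81 ± 0.18, adjusted p = 0.000264, n = 6). The other 6 did not pass, with values of -0.15 for HMO1, a protein of ribosomal DNA chromatin, -0.15 for SFP1, an activator of ribosome genes, -0.15 for FHL1, the promoter partner of Ifh1, and -0.07 for CRF1, a corepressor. DOT6, the paralog of TOD6, was at -0.02 and the kinase gene TOR1 at 0.08.

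The members lay on 13 of the 16 chromosomes by their systematic names, and 5 of them had a neighbour from the lists next to them in the RefSeq gene order of R64. These pairs were UTP6 with RPS18A (-1.51 and -1.45 at 18-20 generations), RRP5 with RPS10B (-2.68 and -1.85), NOC4 with RRP15 (-1.02 and -1.33), UTP9 with RIX1 (-1.57 and -0.78) and LCP5 with NSA2 (-1.05 and -0.45). Both genes fell in all pairs except the last, where NSA2 did not pass (adjusted p = 0.0711). The neighbours came from lists in which 43 of 43 tested 40S ribosomal protein genes and 56 of 59 tested 60S assembly factors fell. A fall of both genes was thus nearly fixed by the choice of lists, and an effect of position was not tested. Across the 36 members, longer coding sequences went with lower values at 18-20 generations (Pearson r = -0.314, Spearman rho = -0.327), against r = 0.02 and rho = 0.04 over 5442 genes. The points share the same arrays, so this is a description of these genes.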

How the data were processed

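Total RNA of 27 samples was amplified, dye-coupled and hybridised with young RNA on two-colour arrays, per the labels' protocols. The deposited scanner files hold, per the file headers, median foreground and background intensities per spot in red (Cy5) and green (Cy3), the percent of pixels above background plus 2 SD, and marks. The authors' deposited table of processed values was read as log2 ratios from its values, with normalization and centring unknown. Its column medians ran from -0.0625 to 0.0984, and its direction was taken from the scanner files, which 23 of 27 columns matched best, while the columns of 8-generation arrays 1 and 3, and those of 1-generation arrays 3 and 4, matched each other's. Aligners or builds are not given in the sources used here.

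From the intensities, log ratios were computed with limma 3.58.1 in R 4.3.3. The steps were normexp background correction (offset 50), loess within arrays (span 0.3), turning each ratio to aged over young by the dye labels (inverted on 11 arrays), and averaging of a gene's spots. Marked spots were left out, and a gene was tested where at least 3 arrays of every age had an unmarked spot. One lmFit with a mean per age and a dye term was fitted to all arrays, with eBayes, two-sided tests and Benjamini-Hochberg adjustment over 5865 genes (threshold 0.05). SEs of genes not measured on all arrays are approximate. Of 6388 names, 5849 matched RefSeq locus tags, and probes listing several genes (322) named none. The fit was run on simulated data with independent noise and the same SD of a gene at all ages. The real arrays spread more with age and some were much alike, so that run does not show the error rate here.

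The members and lists were chosen with earlier results of these data known. Minimum, median and maximum per age are given for the 6 lowest and 3 highest members at 18-20 generations, for NOP1, RRP5, UTP10, IMP4 and SNU13, for the 3 lowest and 3 highest differences, and for the lowest p at 8 (2 members) and at 1 generation. Of each related list, up to 4 genes with the greatest change are named, with those called against the list's direction, and all regulators. The mating type genes, the dye and array sets, the brightness term and the second way of turning 8-generation array 1 were chosen after the data were seen. Replicate numbers did not pair the arrays. The arrays' number limits the precision.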

Additional observations from a re-analysis of the deposited data

Results flagged for a closer look

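Of 149 sets of values at 1 age, each of 1 member or of the median over members, 8 had an array far from the others. Chance gives about 1 in 20 sets. At 18-20 generations, UTP23 on array 5 was -0.055, with the nearest other array at -1.42. At 8 generations, these were UTP11 at 1.67 on array 6, RRP5 at 0.57 on array 5 and UTP10 at 0.36 on array 1. At 1 generation they were EMG1 at 1.22 on array 3 and, all on array 2, UTP4 at 0.26, UTP22 at 0.36 and DIP2 at -0.32. Array 2 was the only dye-inverted array of its age and ran against 5 of the 6 others (r = -0.67 to -0.209).

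The change against young cells differed between the 2 oldest ages, by limma's test of the difference, for 24 members, all lower at 18-20 than at 12 generations. With scaled arrays 0 passed, and from the authors' deposited table NAN1 did not pass (-0.86). Among the members described by array, the difference was -1.86 for NAN1, -1.60 for IMP4, -1.57 for NOP58, -1.08 for RRP5 and -1.07 for UTP4. It was -1.05 for UTP10, -0.97 for NOP1, -0.97 for UTP20 and -0.81 for UTP9. The arrays at 12 generations were themselves spread over the range between young and oldest.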

How the results depend on the processing

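With scaling between arrays, the median at 18-20 generations was -0.77, the members without overlap with 1 generation were 16, and 0 members differed between 18-20 and 12 generations. There SNU13, UTP5 and DIP2 turned to 0.030, 0.12 and 0.029. With alike arrays averaged, 12 of 35 members differed between those ages, and UTP7 (0.20) and DIP2 (0.052) turned without a call. At 8 generations, where the main count was 0, 12 members passed with array weights (3 lower, 9 higher), beside 24.6% of all genes. It was 3 with array 1 turned together with its dye term (9.07% of all genes), 1 with its ratio alone turned (7.42%) and 1 with it left out (6.72%). Turning the ratio alone was run first and the dye term was turned too after that count was seen. With the brightness set as a term, the median of the members at 8 generations was -0.16. Every 8-generation array is in that set, so the term rests on 18-20-generation array 7 alone. The difference of IMP3 between the oldest ages was -0.038 without background correction, -0.018 with marked spots kept and -0.33 from the authors' deposited table. It was -0.9997 with array weights (adjusted p = 0.0153). With the brightness set as a term it was -0.57, the same as without 18-20-generation array 7. At 12 generations NOP58 was -0.011 and UTP6 0.036 against the 1-generation arrays (UTP6 0.0072 without 12-generation array 4), and UTP7 at 18-20 was -0.19 with array weights. The cause was not tested. Leaving out 1 array gave 22 to 26 members at 12 generations (22 without 12-generation array 1), 34 to 35 at 18-20, 0 to 1 at 8, 0 at 1 and 19 to 28 for the difference, with 28 to 31 not overlapping. Of all genes, 39.8% to 48.1%, 61.3% to 66.4%, 0% to 6.72%, 0% and 14.4% to 27.6% then passed. The share of all genes without overlap between 18-20 and 1 generation was 17.7% with every array, and is not given with 1 array left out. The medians then ran from 0.0071 to 0.066 at 1, 0.010 to 0.13 at 8, -0.79 to -0.61 at 12 and -1.61 to -1.47 at 18-20 generations. With the replicate block, 25, 34 and 24 members passed at 12, at 18-20 and for the difference, beside 43.5%, 63.0% and 18.2% of all genes; of 39 same-numbered pairs 12 had r above 0.1 and 2 of 27 arrays correlated best with their own number. A scan or slide block was not run, since the headers used give none.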
